A study of Mus musculus with 9 samples.

Results

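The 43 genes described here are those of the hypoxia-inducible factor (HIF) pathway, known HIF target genes and the enzymes of glycolysis. They were taken from a list of names with no threshold on measured values. That list was made with earlier results of these data known, so its shares beside those of all genes describe and do not test. All 43 genes were found among the 56620 genes and loci of the deposited table. They comprise 6 genes of oxygen sensing, the glucose transporter gene Slc2a1, 17 glycolytic enzymes, 6 regulators of glycolysis and lactate carriers, and 13 other HIF targets. RNA was measured in cells sold as mouse pulmonary microvascular endothelial cells, the cells lining the small vessels of the lung, in 3 groups of 3 libraries each after 48 h of culture. HO-rWNT5A cells were kept in 85% oxygen with recombinant WNT5A, a secreted WNT ligand, at 100 ng/ml. HO cells were kept in 85% oxygen alone, and RA cells in room air with 21% oxygen. All groups used the same purchased cells. Since no label states that libraries are separate cultures, the p-values measure a spread between libraries that may be technical.

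HIF is a pair of proteins whose alpha subunit, HIF1A or EPAS1, is made continuously and destroyed when oxygen is plentiful. Prolyl hydroxylases, encoded by the Egln genes, use oxygen to mark the alpha subunit, and VHL, part of a ubiquitin ligase, binds the marked form and sends it for degradation. When oxygen is scarce the alpha subunit escapes this marking, pairs with ARNT and binds short DNA elements near genes for glucose uptake, glycolysis, lactate export, mitophagy and vessel growth. Much of this control acts on the protein, so the RNA of Hif1a or Epas1 is not a readout of HIF activity. WNT5A is best known for signalling that does not pass through beta-catenin.

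The values are FPKM, fragments divided by transcript length and library size, summed over the transcripts of each gene and scaled between libraries by median ratio. The rough depth was 21300000 to 26500000 fragments per library. The 13825 genes whose mean reached 1 FPKM were tested with limma on log2(scaled FPKM + 1), and a gene was called when its Benjamini-Hochberg adjusted p over all 13825 was under 0.05. Fold changes on that scale understate the change of low genes. Of the 43 genes, 39 passed the filter. The other 4, Aldoc, Pdk1, Car9 and Ankrd37, have values but no call. The scale factors were 0.978 to 0.997 in HO-rWNT5A, 0.945 to 1.02 in HO and 1.03 to 1.04 in RA. With FPKM as deposited, the median log2 fold change of all genes tested was -0.062 in HO-rWNT5A against RA and -0.057 in HO against RA.

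The endothelial label went against several of its defining genes. Of 17 endothelial markers, 13 had a mean under 1 FPKM, among them Pecam1 at 0.0930, Cdh5 at 0.0543 and Vwf at 0.0441 FPKM, whereas Flt1 averaged 37.9 and Emcn 10.1 FPKM. Of 10 pericyte and smooth muscle markers, 6 had at least 5 FPKM, with Acta2 at 1574 and Des at 366 FPKM. The other 4 were under 1 FPKM, with Rgs5 at 0.757, Myh11 at 0.236, Abcc9 at 0.142 and Kcnj8 at 0.0375 FPKM. The fibroblast list had 3 of 8 markers at 5 FPKM or more, the epithelial list 4 of 9 and the leukocyte list 0 of 8. Col1a1 averaged 183 FPKM and the epithelial Krt18 54.7 FPKM. Under 1 FPKM were 5 fibroblast, 3 epithelial and 6 leukocyte markers. The cells are therefore called by their label only. In bulk RNA of this kind, fewer cells of a type and less RNA per cell cannot be told apart.

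Promoter sequences are shown for 6 genes on which the comparisons below turn, because the HIF element has a fixed core that can be read in them. They are Slc16a3, Bnip3 and Adm, which passed the test in HO-rWNT5A against RA, and Pfkl, Ldha and Pdk1. The last 3 had all HO-rWNT5A libraries below both other groups. Egln1, Slc2a1, Aldoa, Pgk1 and P4ha2, whose windows are not shown, did the same. Ndrg1 passed the test as well. Each sequence is the 250 bases before and the 50 bases from the RefSeq gene start in the assembly GRCm38.p6, read 5′ to 3′ on the strand of the gene. Capitals mark the HIF core ACGTG or its variant GCGTG on either strand, so that CACGT and CACGC in capitals are the same cores on the other strand. The palindrome CACGTG counts on both strands.
Slc16a3, chr11:120948817-120949116, plus strand: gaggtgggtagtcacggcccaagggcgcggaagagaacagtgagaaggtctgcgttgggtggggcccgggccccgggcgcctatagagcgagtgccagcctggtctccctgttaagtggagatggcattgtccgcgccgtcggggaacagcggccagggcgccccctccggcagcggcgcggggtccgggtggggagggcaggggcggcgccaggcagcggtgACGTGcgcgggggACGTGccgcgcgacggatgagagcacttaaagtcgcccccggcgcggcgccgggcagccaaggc
Bnip3, chr7:138909457-138909756, minus strand: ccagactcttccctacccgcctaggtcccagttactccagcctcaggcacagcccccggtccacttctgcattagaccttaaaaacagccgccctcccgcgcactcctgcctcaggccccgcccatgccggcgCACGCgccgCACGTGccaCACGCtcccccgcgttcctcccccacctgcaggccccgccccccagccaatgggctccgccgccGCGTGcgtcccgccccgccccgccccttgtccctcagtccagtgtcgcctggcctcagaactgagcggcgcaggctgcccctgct
Adm, chr7:110627407-110627706, plus strand: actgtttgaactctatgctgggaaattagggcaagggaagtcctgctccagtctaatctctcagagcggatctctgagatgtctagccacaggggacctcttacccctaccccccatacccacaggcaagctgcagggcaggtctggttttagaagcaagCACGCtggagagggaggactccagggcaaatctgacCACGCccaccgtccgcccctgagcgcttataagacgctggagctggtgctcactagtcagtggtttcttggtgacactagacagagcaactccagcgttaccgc
Pfkl, chr10:78009758-78010057, minus strand: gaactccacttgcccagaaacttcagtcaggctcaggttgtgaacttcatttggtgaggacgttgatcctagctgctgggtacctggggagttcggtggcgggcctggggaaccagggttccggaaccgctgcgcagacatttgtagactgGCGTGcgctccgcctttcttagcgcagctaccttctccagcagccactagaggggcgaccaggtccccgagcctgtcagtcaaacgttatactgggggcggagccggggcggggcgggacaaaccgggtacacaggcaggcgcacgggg
Ldha, chr7:46845554-46845853, plus strand: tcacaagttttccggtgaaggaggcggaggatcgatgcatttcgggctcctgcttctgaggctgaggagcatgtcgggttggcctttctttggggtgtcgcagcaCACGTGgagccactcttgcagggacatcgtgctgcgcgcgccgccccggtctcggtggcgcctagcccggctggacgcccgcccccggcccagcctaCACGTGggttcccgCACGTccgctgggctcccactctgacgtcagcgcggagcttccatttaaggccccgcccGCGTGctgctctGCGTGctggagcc
Pdk1, chr2:71872974-71873273, plus strand: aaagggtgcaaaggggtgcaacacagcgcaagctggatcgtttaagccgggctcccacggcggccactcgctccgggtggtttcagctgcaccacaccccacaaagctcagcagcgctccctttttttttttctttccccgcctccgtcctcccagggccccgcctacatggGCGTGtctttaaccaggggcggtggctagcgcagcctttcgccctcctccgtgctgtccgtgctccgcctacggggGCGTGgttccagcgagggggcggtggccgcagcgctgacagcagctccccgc
The Slc16a3 window held 2 ACGTG cores, with their first bases at -27 and -14 from the gene start. The Bnip3 window held a CACGTG palindrome at -108, read on both strands, and 3 GCGTG cores at -117, -99 and -35. The Ldha window held 2 such palindromes, at -145 and -48, an ACGTG core at -34 and GCGTG cores at 26 and 38. The windows of Adm, Pdk1 and Pfkl held only GCGTG cores, 2 in Adm, 2 in Pdk1 and 1 in Pfkl. Of the 43 genes, 40 had an entry in the promoter table, and 33 of these (82.5%) held ACGTG or GCGTG, against 43.8% of all 32851 promoters and 63.2% of the 11535 promoters of genes tested. The windows of the 40 genes had a median GC content of 63.8%, against 61.3% for genes tested and 52.7% for all promoters, and both cores hold a CG step. By role, 13 of 17 enzymes, 6 of 6 regulators and carriers and 9 of 11 other targets held a core. No core lay in the windows of Vegfa, Vhl, Gpi1, Tpi1, Eno2, Pkm and Mxi1. Where a gene had more than 1 entry, only the one nearest the start of its most abundant transcript was read. The gene starts used for Eno2 and Pkm lay 1336 and 208 bases from that transcript start. These are matches of letters in a window, not measured binding sites.

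The levels of the 17 enzymes differed widely. Ranked by the mean FPKM of the 9 libraries, which is per length, among the 13825 genes tested, Gapdh stood at 45, Eno1 at 52, Pkm at 55 and Aldoa at 74. Ldha followed at 174, Pgk1 at 258, Pgam1 at 281, Tpi1 at 414 and Gpi1 at 623. The other 7 tested were lower, with Ldhb at 1802, Hk1 at 1808, Hk2 at 2471, Pfkl at 3890, Eno2 at 5229, Pfkp at 6358 and Pfkm at 6969. Together the 17 enzymes held 0.864%, 0.878% and 0.874% of the protein-coding FPKM in HO-rWNT5A libraries 1 to 3, 0.878%, 1.04% and 0.905% in HO, and 0.955%, 0.961% and 0.907% in RA. The HO-rWNT5A shares lay below all RA shares, and the HO shares reached both below and above those of RA. The highest HO-rWNT5A share and the lowest HO share both round to 0.878%. The hypoxia marker Car9, a carbonic anhydrase of the cell surface, was at 0 to 0.112 FPKM in every library. The aldolase gene Aldoc had 0.531 to 0.897 FPKM. Ankrd37, an ankyrin-repeat protein gene, had 0.466, 0.479 and 0.662 FPKM in HO-rWNT5A, 0.452, 0.455 and 0.895 in HO and 0.918, 0.772 and 0.793 in RA. Its HO-rWNT5A libraries lay below all RA libraries and overlapped with HO. When the filter was dropped, its log2 fold change against RA was -0.25 (limma adjusted p = 0.424).

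Part of the sequence of several enzymes is shared with pseudogenes, which limits how reads could be assigned. Of the 100-base words in the most abundant Gapdh transcript, 78.0% also occur in other genes, whose FPKM sums to 260. Counted in the same way, the share was 67.0% for Pgk1, 59.0% for Eno1, 39.7% for Pgam1 and 33.5% for Bnip3. The values of these 5 genes are uncertain to that extent. When the FPKM of the sharing genes was added, HO-rWNT5A libraries still lay below all RA libraries for Gapdh, Pgk1, Eno1 and Bnip3.

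**Figure D1:**
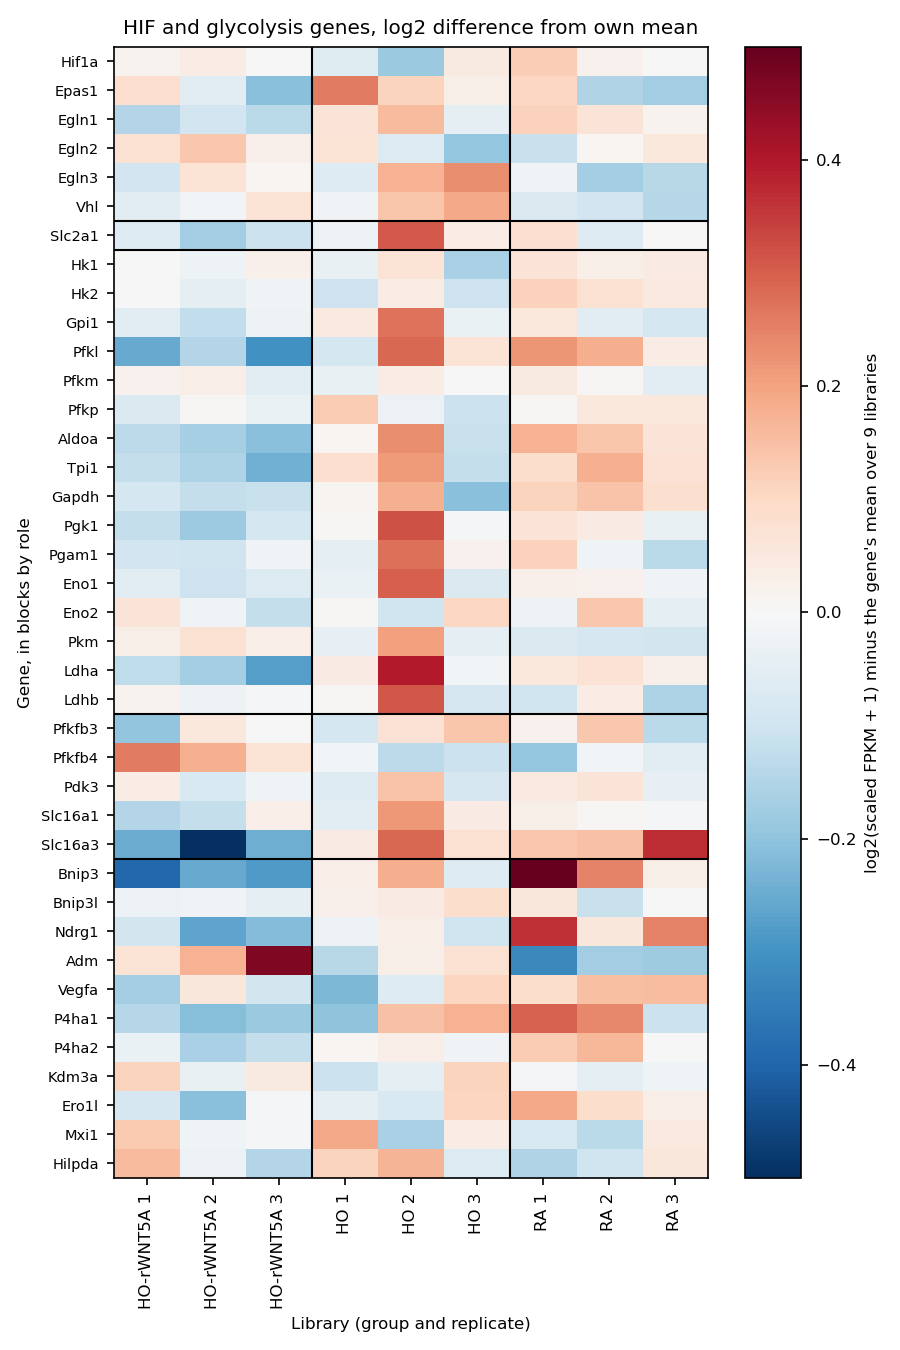
Each row is 1 of the 39 genes tested, in blocks by role, and each column 1 library of HO-rWNT5A, HO or RA; colour gives log2(scaled FPKM + 1) minus the gene's mean over the 9 libraries. HO replicate 2 is the reddest column among the enzymes, and the 3 HO-rWNT5A columns are mostly blue there.

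Hyperoxia alone moved no gene of the set past the test. Of the 39 genes tested, 0 passed limma in HO against RA, where 1.97% of all genes tested were called, 167 higher (1.21%) and 105 lower (0.759%). At an unadjusted p under 0.05 there were 4 of 39, against 18.2% of all genes. Vhl, Pkm and Adm had all HO libraries above all RA libraries (7.69% of 39), against 11.3% of all genes, and Hk2 and Ndrg1 had all below (5.13%), against 10.1% of all genes. The median log2 fold change was -0.0086 for the 16 enzymes tested and -0.09 for the 11 other targets tested, beside -0.0038 for all genes. The medians of the enzymes and the other targets differed by 0.08. The pooled SD of that difference between single libraries was 0.099, which is not the SE of a difference between group means. No test of the difference was run. The 37 further HIF targets tested, described last, had a median of 0.062, with 28 positive and 9 negative. Of the marker genes, Notch3, a pericyte and smooth muscle marker, was called higher in HO (limma adjusted p = 0.0351). The fibroblast markers summed to 213.4 to 263.3 FPKM in HO and 263.4 to 281.5 FPKM in RA. Most of that sum was Col1a1, which was not called (limma adjusted p = 0.305). The part of these marker differences in the values of the set was not tested.

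None of the 6 oxygen-sensing genes passed the limma test in any of the 3 comparisons. Hif1a, the alpha subunit that responds in most cell types, had 39.5, 40.03 and 38.9 FPKM in HO-rWNT5A, 37.3, 34.2 and 40.2 in HO and 42.5, 39.6 and 39.04 in RA. Epas1, the alpha subunit prominent in endothelium, had 9.17, 8.23 and 7.31 FPKM in HO-rWNT5A, 10.5, 9.37 and 8.798 in HO and 9.301, 7.65 and 7.51 in RA. For both genes all 3 groups overlapped, and Hif1a made up 78.0% to 84.2% of the summed FPKM of the pair. Vhl had 6.53, 6.75 and 7.196 FPKM in HO-rWNT5A, 6.73, 7.61 and 7.91 in HO and 6.44, 6.31 and 6.09 in RA, so that every library in 85% oxygen lay above every RA library. The log2 fold change of Vhl was 0.21 ± 0.07 (SE) in HO against RA, with a limma adjusted p of 0.164. Egln3, the prolyl hydroxylase gene most often induced by HIF, was low, at 1.62 to 2.46 FPKM, and overlapped between all groups.

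Egln1, the main prolyl hydroxylase gene for HIF1A, had 11.6, 12.02 and 11.7 FPKM in HO-rWNT5A, 13.6, 14.5 and 12.5 in HO and 14.1, 13.6 and 13.1 in RA. All HO-rWNT5A libraries lay below all others, while HO and RA overlapped. The log2 fold change was -0.19 ± 0.063 (SE) against RA and -0.18 against HO, with limma adjusted p of 0.114 and 0.499. Egln2, a prolyl hydroxylase gene not known as a HIF target, had 19.3, 20.2 and 18.6 FPKM in HO-rWNT5A, 19.2, 17.4 and 15.9 in HO and 16.8, 18.4 and 19.01 in RA, which overlapped. Egln1 made up 35.6% ± 0.602 of the 3 Egln genes' FPKM in HO-rWNT5A, 40.7% ± 1.60 in HO and 40.7% ± 2.07 in RA (SD, n = 3 each).

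Recombinant WNT5A under hyperoxia also moved no gene of the set past the test against HO, with 0 of 39 passing limma. In that comparison 1 gene of 13825 was called (0.00723%), 0 higher (0%) and 1 lower (0.00723%). At an unadjusted p under 0.05 there were 11 of the 39 genes, 2 with a positive and 9 with a negative fold change, against 9.2% of all genes. All HO-rWNT5A libraries lay below all HO libraries for 10 of 39 genes (25.6%), against 6.7% of all genes. The 10 were Egln1, Slc2a1, Pfkl, Aldoa, Pgk1, Ldha, Slc16a3, Bnip3, Bnip3l and P4ha2, and Pdk1, under the filter, did the same. Pfkfb4 alone lay above (2.56%), against 6.26% of all genes. The median log2 fold change was -0.12 for the enzymes and -0.08 for the other targets, beside 0.0018 for all genes. Without HO replicate 2 the enzymes' median was -0.05 and that of the other targets -0.09.

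HO replicate 2 stood apart in the enzymes. It was the highest of the 9 libraries for 12 of 16 enzymes (75.0%) and for 1 of 11 other targets (9.09%), against 18.9% of all genes tested. Its median log2 distance from each enzyme's own mean was 0.22, against -0.10 to 0.06 in the other 8 libraries. Ldha, which encodes the main subunit of lactate dehydrogenase in these cells, had 265 FPKM in this library, against 207 and 199 in HO replicates 1 and 3. Slc2a1, the main glucose transporter gene of endothelium, had 33.8 FPKM there, against 26.6 and 27.8 FPKM in HO replicates 1 and 3. The same library had the lowest scale factor of the 9 (0.945) and the lowest share of retained-intron transcripts in its FPKM outside structural RNA (7.16%). It also had the fewest genes at 1 FPKM or more (13438). Its rough depth, 21300000 fragments, was close to the 21500000 of HO replicate 3 and the 21800000 of HO-rWNT5A replicate 2. The part of these in its enzyme levels was not tested.

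**Figure D2:**
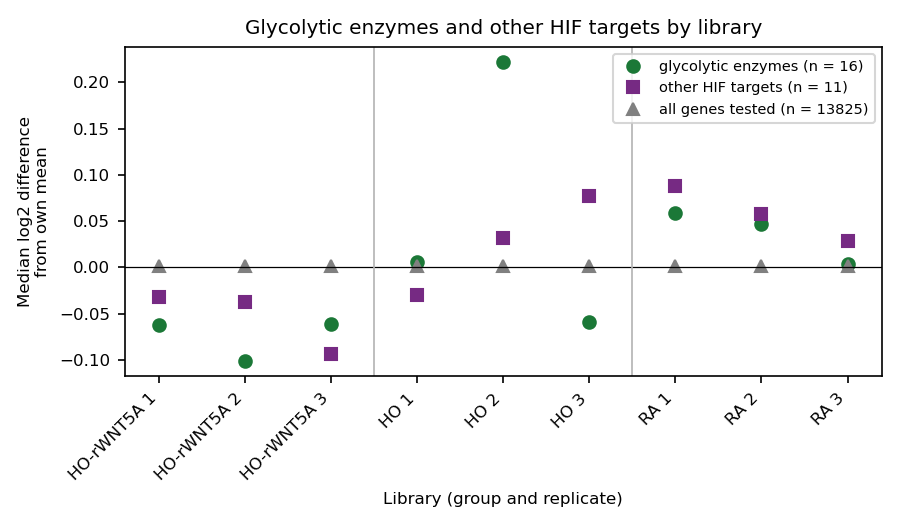
The vertical axis is the median log2 difference of a library from each gene's own mean over the 9 libraries, for 16 glycolytic enzymes, 11 other HIF targets and all 13825 genes tested. The enzymes reach 0.22 in HO replicate 2, and the other targets lie at -0.09 to -0.03 in HO-rWNT5A, -0.03 to 0.08 in HO and 0.03 to 0.09 in RA.

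The largest set of calls came from HO-rWNT5A against RA, which differ in both oxygen and WNT5A. Any pair of the 3 comparisons shares 1 group of libraries, so their fold changes are not independent of each other. Of the 39 genes, 4 passed (10.3%), where 4.25% of all genes were called, 331 higher (2.39%) and 257 lower (1.86%). Slc16a3, Bnip3 and Ndrg1 fell and Adm rose. At an unadjusted p under 0.05 there were 15 of 39, 2 with a positive and 13 with a negative fold change, against 20.9% of all genes. All HO-rWNT5A libraries lay below all RA libraries for 19 of 39 genes (48.7%), against 16.5% of all genes, and above for Vhl, Pkm, Pfkfb4 and Adm (10.3%), against 16.4% of all genes. The endothelial markers summed to 42.5 to 51.7 FPKM in HO-rWNT5A and 52.1 to 56.6 FPKM in RA. Most of that sum was Flt1, which averaged 33.8 FPKM in HO-rWNT5A and 41.6 FPKM in RA, whereas Kdr, Ptprb, Pecam1 and Esam, each near or under 1 FPKM, had all HO-rWNT5A libraries above all RA libraries. The fibroblast markers summed to 190.4 to 262.8 FPKM in HO-rWNT5A, 213.4 to 263.3 FPKM in HO and 263.4 to 281.5 FPKM in RA. Most of that sum was Col1a1, which averaged 169.0 FPKM in HO-rWNT5A, 175.6 in HO and 205.1 in RA. Pdgfra, Dcn, Lum, Tcf21 and Fap, each under 1 FPKM, overlapped between HO-rWNT5A and RA. The pericyte and smooth muscle markers summed to 2682 to 3076 FPKM in HO-rWNT5A and 2911 to 3257 FPKM in RA, which overlapped. Of these, Cspg4, Des and Pdgfrb lay below RA in all HO-rWNT5A libraries, at 0.709, 0.802 and 0.836 of the RA mean, and Notch3 lay above, at 1.49 times. No gene of the 5 marker lists was called in HO-rWNT5A against RA, and the part of these differences in the results was not tested.

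Slc16a3 encodes MCT4, the carrier that exports lactate from glycolytic cells, and lies on chromosome 11 from 120948480 to 120960868 (GRCm38, GENCODE M21). Its levels were 5.34, 4.11 and 5.36 FPKM in HO-rWNT5A, 6.75, 8.203 and 6.95 in HO and 7.28, 7.33 and 8.74 in RA. All HO-rWNT5A libraries were low, below every library of both other groups, and HO and RA overlapped. Against RA it fell to 0.634 of the RA mean. On log2(scaled FPKM + 1) the difference was -0.57 ± 0.11 (SE) at a limma adjusted p of 0.0213. Against HO the log2 fold change was -0.49 ± 0.11 (limma adjusted p = 0.431), and in HO against RA it was -0.08 (limma adjusted p = 0.732). The transcript Slc16a3-208 held 69.2%, 84.3% and 26.3% of the gene's FPKM in HO-rWNT5A, 81.2%, 91.2% and 80.5% in HO, and 84.5%, 87.9% and 58.5% in RA. HO-rWNT5A replicate 3 and RA replicate 3 were the low libraries in that share. Slc16a1, which encodes the broader lactate carrier MCT1, had 2.97, 3.05 and 3.497 FPKM in HO-rWNT5A, 3.24, 4.12 and 3.52 in HO and 3.49, 3.42 and 3.37 in RA, with all groups overlapping. Slc16a3 made up 60.7% ± 3.42 of the pair in HO-rWNT5A, 66.8% ± 0.647 in HO and 69.3% ± 2.48 in RA.

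Bnip3 encodes a receptor for mitophagy, the removal of mitochondria, and lies on chromosome 7 from 138890836 to 138909519. It had 4.41, 4.97 and 4.85 FPKM in HO-rWNT5A, 6.27, 7.06 and 5.79 in HO and 9.06, 7.45 and 6.25 in RA. The HO-rWNT5A libraries lay below all others, and RA replicate 3 lay within the range of HO. Against RA it fell to 0.625 of the RA mean. On log2(scaled FPKM + 1) the difference was -0.57 ± 0.11 (SE) at a limma adjusted p of 0.0254. Against HO the log2 fold change was -0.36 ± 0.11 (limma adjusted p = 0.499). Its relative Bnip3l, also a mitophagy receptor gene, had 28.7, 28.95 and 28.4 FPKM in HO-rWNT5A, 29.9, 30.2 and 31.3 in HO and 30.5, 27.1 and 29.3 in RA. Its HO-rWNT5A and RA libraries overlapped, with a log2 fold change of -0.01 ± 0.055.

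Ndrg1, a stress-response gene induced in hypoxia, lies on chromosome 15 from 66929318 to 66969640. It had 2.89, 2.45 and 2.56 FPKM in HO-rWNT5A, 3.05, 3.23 and 2.87 in HO and 4.33, 3.31 and 3.91 in RA. All libraries in 85% oxygen lay below all RA libraries, and HO-rWNT5A overlapped with HO. Against RA it fell to 0.684 of the RA mean in HO-rWNT5A. On log2(scaled FPKM + 1) the difference was -0.41 ± 0.093 (SE) at a limma adjusted p of 0.0379. In HO against RA the log2 fold change was -0.26 ± 0.093 (limma adjusted p = 0.189). Adm, which encodes the vasodilator peptide adrenomedullin, lies on chromosome 7 from 110627661 to 110629820 and went the other way. It had 15.5, 16.7 and 20.7 FPKM in HO-rWNT5A, 13.3, 15.02 and 15.6 in HO and 11.6, 12.9 and 12.9 in RA. HO lay above RA in all libraries, and HO-rWNT5A above RA, while HO-rWNT5A overlapped with HO by 1 library. Against RA it rose to 1.42 times the RA mean in HO-rWNT5A. On log2(scaled FPKM + 1) the difference was 0.46 ± 0.10 (SE) at a limma adjusted p of 0.0349. In HO against RA the log2 fold change was 0.21 ± 0.10 (limma adjusted p = 0.293).

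Each of the 4 calls was lost when certain single libraries were left out. Slc16a3 was no longer called without RA replicate 1 (limma adjusted p = 0.0631), 2 (0.0584) or 3 (0.0811) or HO-rWNT5A replicate 2 (0.0783). Bnip3 was not called without RA replicate 1 (limma adjusted p = 0.0778) or 2 (0.0785) or HO-rWNT5A replicate 1 (0.0824), 2 (0.0785) or 3 (0.0714). Ndrg1 was not called without RA replicate 1 (limma adjusted p = 0.138) or 3 (0.121) or HO-rWNT5A replicate 1 (0.0639), 2 (0.137) or 3 (0.1104), and Adm without RA replicate 1 (0.128), 2 (0.0846) or 3 (0.0911) or HO-rWNT5A replicate 2 (0.0936) or 3 (0.0844). With equal totals as the scaling, Ndrg1 (limma adjusted p = 0.0676) and Adm (0.128) were not called, and without the filter on low values none of the 4 was. The direction of each was the same under all these settings.

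**Figure D3:**
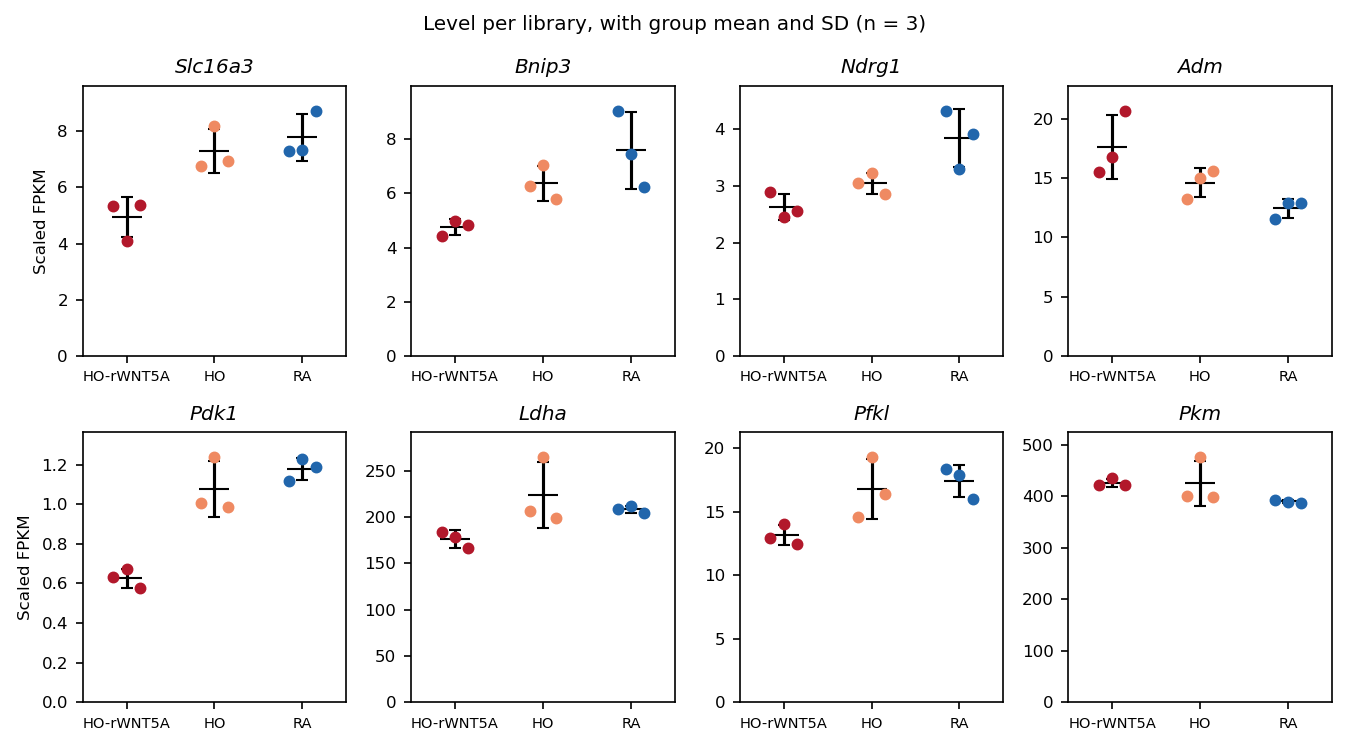
Each point is the scaled FPKM of 1 library in HO-rWNT5A, HO or RA, with the group mean and SD (n = 3), on axes that start at 0. Slc16a3, Bnip3, Pdk1, Ldha and Pfkl have all HO-rWNT5A libraries below all others, and Adm has its highest library, 20.7 FPKM, in HO-rWNT5A.

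Among the 16 enzymes tested, 0 passed against RA, and 10 (62.5%) had all HO-rWNT5A libraries below all RA libraries, where 4.25% of all genes were called and 16.5% lay below. These were Hk1, Hk2, Pfkl, Pfkp, Aldoa, Tpi1, Gapdh, Pgk1, Eno1 and Ldha, and Pkm alone lay above. Pfkl, the liver-type phosphofructokinase gene of the committing step, had 12.95, 14.03 and 12.5 FPKM in HO-rWNT5A, 14.6, 19.3 and 16.4 in HO and 18.4, 17.9 and 16.04 in RA. Each HO-rWNT5A library lay below every library of both other groups. Its log2 fold change was -0.38 ± 0.094 (SE) against RA, with a limma adjusted p of 0.051, and -0.32 against HO. The limma adjusted p against RA was 0.0412 with a filter of 5 FPKM, 0.0190 with FPKM as deposited, 0.0423 with quantile normalization and 0.0143 with the 2 groups alone. In the other 13 of the 17 alternatives Pfkl was not called. The muscle-type gene Pfkm had 7.34, 7.39 and 6.89 FPKM in HO-rWNT5A, 7.001, 7.42 and 7.19 in HO and 7.46, 7.23 and 6.92 in RA, a log2 fold change of 0.0011 ± 0.059 against RA. The platelet-type gene Pfkp had 7.898, 8.402 and 8.13 FPKM in HO-rWNT5A, 9.22, 8.16 and 7.68 in HO and 8.405, 8.71 and 8.69 in RA. Its most abundant transcript shares 16.04% of its words with the overlapping gene Pitrm1. Pfkl made up 46.1% ± 0.859 of the 3 phosphofructokinase genes' FPKM in HO-rWNT5A, 51.7% ± 4.01 in HO and 52.4% ± 1.56 in RA.

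Ldha had 184, 179 and 166 FPKM in HO-rWNT5A, 207, 265 and 199 in HO and 209, 212 and 204 in RA. The HO-rWNT5A libraries lay below all others, and the 3 RA libraries lay within the range of HO. The log2 fold change was -0.24 ± 0.099 (SE) against RA and -0.33 ± 0.099 against HO, with limma adjusted p of 0.199 and 0.499. Ldhb, which encodes the other subunit, had 31.2, 30.2 and 30.5 FPKM in HO-rWNT5A, 30.9, 38.3 and 28.98 in HO and 28.6, 31.6 and 27.5 in RA, which overlapped. Ldha made up 85.2% ± 0.613 of the pair in HO-rWNT5A, 87.2% ± 0.180 in HO and 87.7% ± 0.588 in RA. This share does not depend on the scaling between libraries, and HO replicate 2 did not stand apart in it, with 87.3% against 87.0% and 87.3% in HO replicates 1 and 3.

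The aldolase gene Aldoa had 307, 299.6 and 291 FPKM in HO-rWNT5A, 339, 395 and 312 in HO and 379, 371 and 352 in RA, with a log2 fold change of -0.30 ± 0.088 (SE) against RA (limma adjusted p = 0.087). The triosephosphate isomerase gene Tpi1 had 91.9, 89.6 and 84.4 FPKM in HO-rWNT5A, 106, 116 and 91.8 in HO and 106, 113 and 105 in RA, with a log2 fold change of -0.28 ± 0.082 against RA (limma adjusted p = 0.0799). Both lay below RA in all HO-rWNT5A libraries, and neither passed the test. The most abundant Tpi1 transcript, Tpi1-204, keeps an intron, and held 58.8%, 26.6% and 60.4% of the gene's FPKM in HO-rWNT5A, 25.9%, 22.4% and 54.0% in HO, and 56.7%, 59.8% and 51.4% in RA. Gapdh, the dehydrogenase often used as a reference gene, had 426, 417 and 419.8 FPKM in HO-rWNT5A, 458, 513 and 392 in HO and 489, 500.3 and 479.6 in RA (log2 fold change -0.22 against RA, limma adjusted p = 0.219). The phosphoglycerate kinase gene Pgk1 had 133, 127 and 136 FPKM in HO-rWNT5A, 145, 180.2 and 144 in HO and 151, 149 and 141 in RA. The enolase gene Eno1 had 403, 389 and 399 FPKM in HO-rWNT5A, 409, 515 and 398 in HO and 425, 425 and 413 in RA. For both, HO replicate 2 was the highest library and RA lay above HO-rWNT5A. The hexokinase genes, whose products trap glucose in the cell, ranged over the 9 libraries from 27.4 to 32.3 FPKM for Hk1 and from 21.9 to 25.6 FPKM for Hk2, and had log2 fold changes of -0.04 for Hk1 and -0.10 for Hk2 against RA (limma adjusted p = 0.733 and 0.337). Gpi1, Pgam1 and Eno2, for glucose phosphate isomerase, phosphoglycerate mutase and the neuronal enolase, overlapped between HO-rWNT5A and RA, with log2 fold changes of -0.04, -0.06 and -0.05.

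Pkm, the pyruvate kinase gene of the last step, had 422, 436 and 423 FPKM in HO-rWNT5A, 401, 476 and 399.7 in HO and 394, 389 and 388 in RA. Every library in 85% oxygen lay above every RA library, with a log2 difference of 0.13 ± 0.08 (SE) at a limma adjusted p of 0.397 in HO-rWNT5A against RA and 0.12 (limma adjusted p = 0.458) in HO against RA. Its transcripts carry 1 of 2 alternative exons of 167 bases each, which give the PKM1 form common in muscle and brain and the PKM2 form common in dividing cells. On chromosome 9 (GRCm38) the PKM1 exon runs from 59675029 to 59675195 and the PKM2 exon from 59675568 to 59675734. The PKM1 transcript held 6.08%, 7.71% and 6.11% of Pkm FPKM in HO-rWNT5A, 6.04%, 6.19% and 7.43% in HO, and 8.01%, 10.1% and 10.7% in RA. All 3 RA libraries lay above all 6 libraries in 85% oxygen. No test of this share was run. The division of reads between transcripts that share most bases is an estimate. The PKM2 transcript held 84.7%, 81.8% and 83.9% in HO-rWNT5A, 86.9%, 87.7% and 82.8% in HO, and 83.7%, 80.8% and 79.7% in RA, and both hyperoxic groups overlapped with RA.

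**Figure D4:**
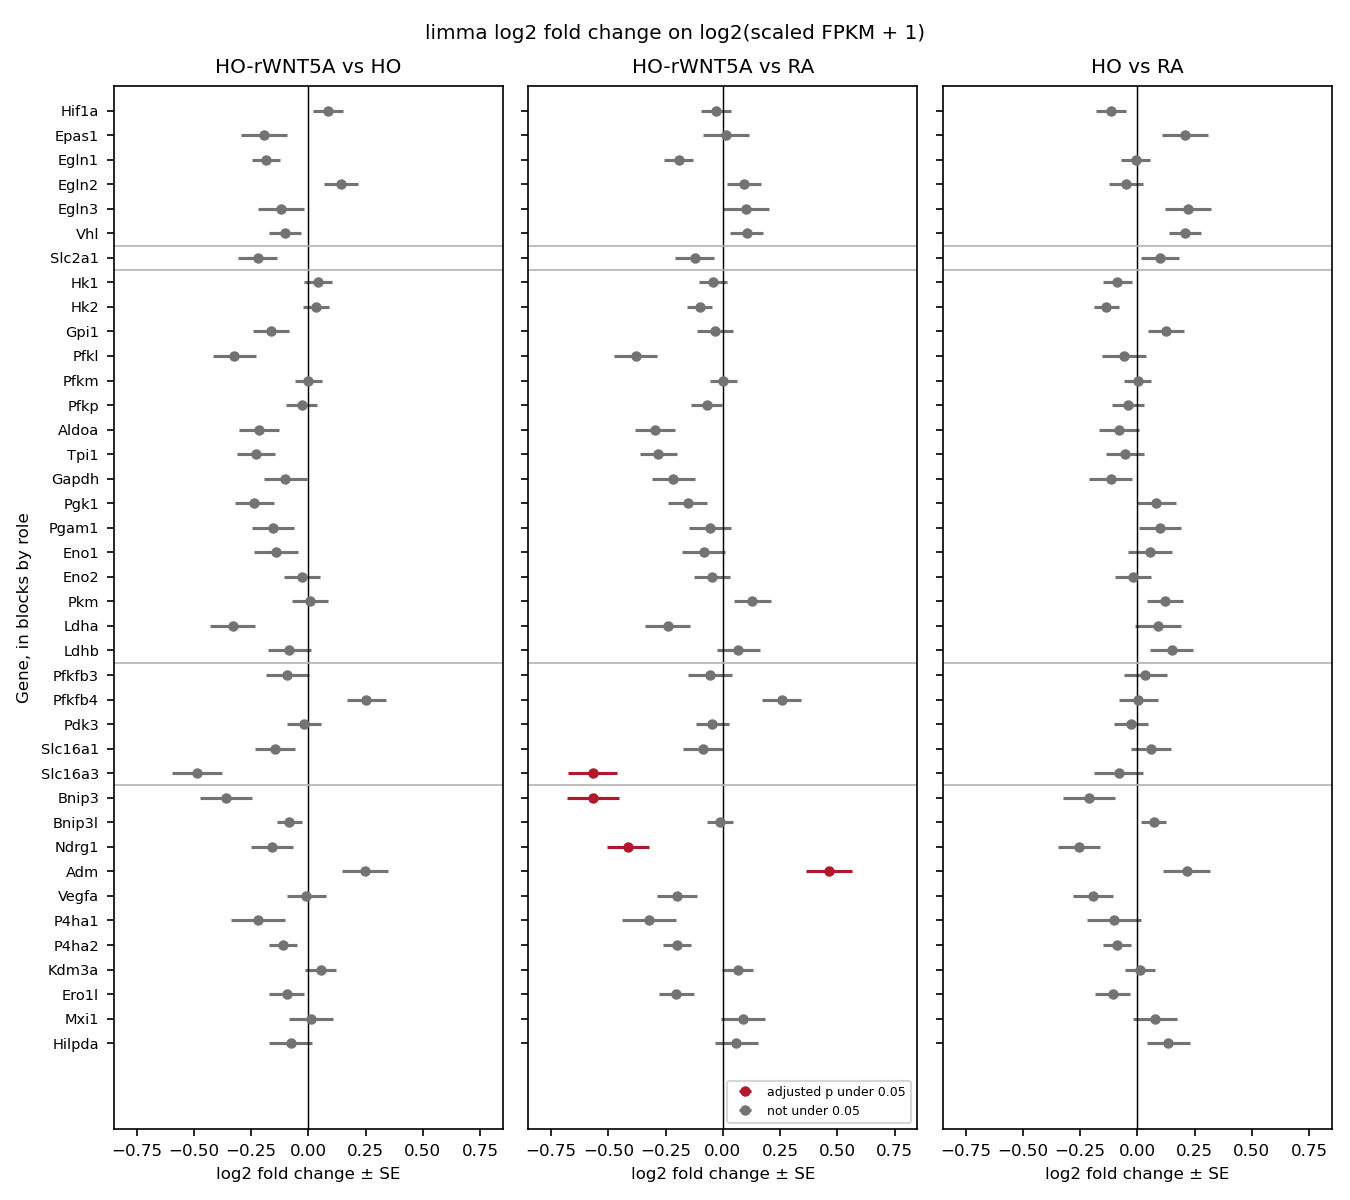
Each point is the limma log2 fold change of 1 of the 39 genes tested, in blocks by role, with its SE, for HO-rWNT5A against HO, HO-rWNT5A against RA, and HO against RA. Red points had an adjusted p under 0.05: Slc16a3, Bnip3 and Ndrg1 lie left of 0 and Adm right of 0, all in HO-rWNT5A against RA.

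Pdk1 encodes a kinase that shuts pyruvate dehydrogenase and so keeps pyruvate out of mitochondria. It had 0.630, 0.672 and 0.577 FPKM in HO-rWNT5A, 1.004, 1.24 and 0.988 in HO and 1.12, 1.23 and 1.19 in RA, a mean too low for the filter. The HO-rWNT5A libraries lay below all others, and HO and RA overlapped. When the filter was dropped, its log2 fold change was -0.42 against RA and -0.35 against HO, with limma adjusted p of 0.0686 and 0.513. The more abundant Pdk3 overlapped between all groups, at 10.4, 9.56 and 9.97 FPKM in HO-rWNT5A, 9.66, 11.3 and 9.505 in HO and 10.5, 10.7 and 9.84 in RA. Pdk1 made up 5.91% ± 0.579 of the pair in HO-rWNT5A, 9.57% ± 0.268 in HO and 10.2% ± 0.602 in RA.

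Pfkfb3 and Pfkfb4 encode enzymes that set the level of the sugar bisphosphate activating phosphofructokinase. Pfkfb4 had 3.21, 2.98 and 2.69 FPKM in HO-rWNT5A, 2.48, 2.21 and 2.26 in HO and 2.07, 2.48 and 2.39 in RA. It was higher in every HO-rWNT5A library than in any other, with a log2 fold change of 0.26 ± 0.085 (SE) against RA and 0.25 against HO, and limma adjusted p of 0.118 and 0.499. Pfkfb3, the more abundant of the pair, overlapped between all groups, at 6.28, 7.65 and 7.36 FPKM in HO-rWNT5A, 6.87, 7.78 and 8.201 in HO and 7.48, 8.16 and 6.61 in RA. Shares were computed for 11 families in all. In 6 of them, those plotted and the Pfkfb pair, the share of a gene in HO-rWNT5A lay apart from both other groups. These 6 families hold Ldha, Pfkl, Slc16a3, Pdk1, Egln1 and Pfkfb4, whose own levels lay apart in the same way, so the count is not a separate result. The families were chosen by hand, and no such count was made over all genes. In the families of hexokinase, aldolase, enolase, the HIF alpha subunits and P4ha, the shares in HO-rWNT5A overlapped with those in HO. Slc2a1 had 25.9, 23.95 and 25.1 FPKM in HO-rWNT5A, 26.6, 33.8 and 27.8 in HO and 28.8, 25.9 and 27.2 in RA. Its HO-rWNT5A libraries lay below all HO libraries and just below all RA libraries, with 25.9 FPKM in the nearest library of both groups (log2 fold change -0.12 against RA, limma adjusted p = 0.45).

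**Figure D5:**
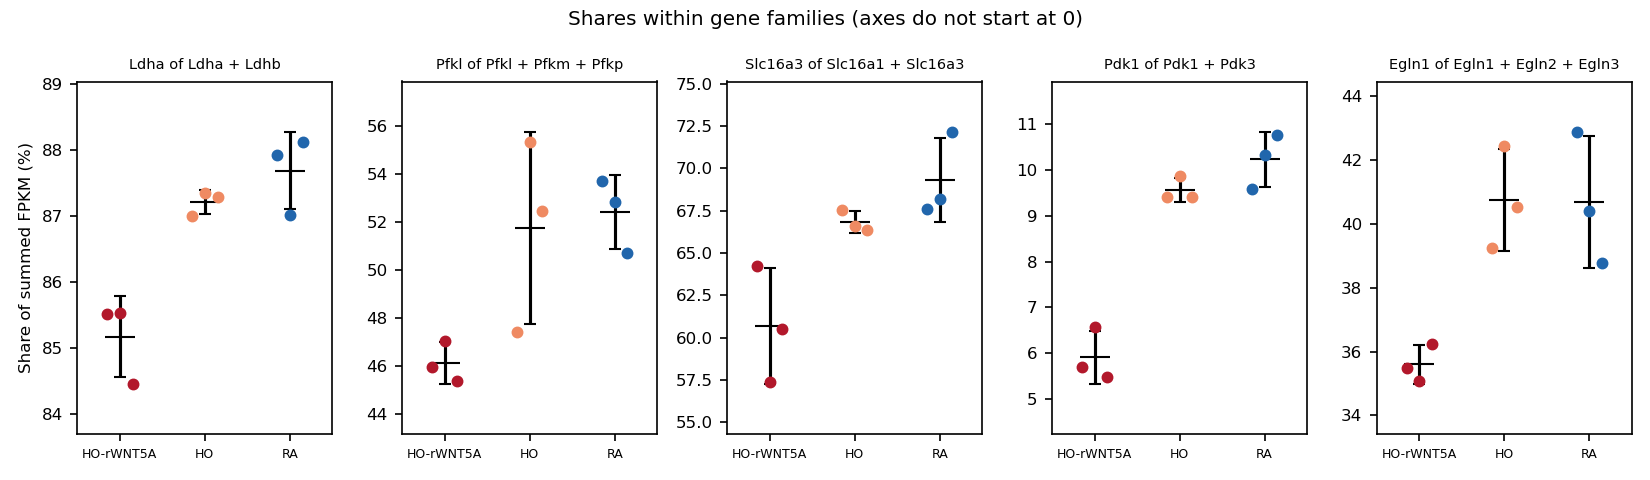
Each point is the share of 1 gene in the summed FPKM of its family in 1 library of HO-rWNT5A, HO or RA, with the group mean and SD (n = 3); the axes do not start at 0. The 5 families were picked from 11 for HO-rWNT5A libraries that lie below both other groups, for example 85.2% Ldha in HO-rWNT5A, against 87.2% in HO and 87.7% in RA.

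Of the 11 other HIF targets tested, 3 passed against RA (27.3%) and 6 (54.5%) had all HO-rWNT5A libraries below all RA libraries. Over all genes tested, 4.25% were called and 16.5% lay below in this way. The median log2 fold change of the 11 was -0.20, beside -0.08 for the enzymes and -0.0034 for all genes. The medians of the 11 and of the enzymes differed by 0.12, which was not tested. The 37 further HIF targets tested had a median of 0.0036, with 18 negative and 19 positive. P4ha1 and P4ha2 encode catalytic subunits of the hydroxylase that matures collagen. P4ha1 had 33.2, 31.6 and 32.2 FPKM in HO-rWNT5A, 31.8, 40.9 and 41.6 in HO and 45.3, 43.6 and 34.1 in RA, with a log2 fold change of -0.32 ± 0.12 (SE) against RA (limma adjusted p = 0.153). P4ha2 had 14.3, 12.99 and 13.4 FPKM in HO-rWNT5A, 14.7, 15.02 and 14.5 in HO and 16.1, 16.5 and 14.6 in RA, with a log2 fold change of -0.20 ± 0.062 against RA (limma adjusted p = 0.0932). Both were lower in all HO-rWNT5A libraries than in RA, and P4ha2 also than in HO. Vegfa, the vascular growth factor gene, had 16.95, 20.02 and 17.95 FPKM in HO-rWNT5A, 16.3, 18.3 and 20.8 in HO and 20.5, 21.4 and 21.5 in RA (log2 fold change -0.20 against RA, limma adjusted p = 0.223). Ero1l, an oxidase gene of the endoplasmic reticulum, had 11.95, 10.9 and 12.7 FPKM in HO-rWNT5A, 12.3, 12.02 and 13.8 in HO and 14.7, 13.6 and 13.1 in RA (log2 fold change -0.20 against RA, limma adjusted p = 0.158). The HO-rWNT5A libraries of Vegfa and Ero1l lay below RA and overlapped with HO. Kdm3a, a histone demethylase gene, Mxi1, a MYC antagonist gene, and Hilpda, a lipid droplet protein gene, overlapped between all groups, with log2 fold changes of 0.06, 0.09 and 0.06 against RA.

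A further list of 83 genes of the HIF pathway, of glycolysis and linked enzymes and of other HIF targets gave 68 genes tested. In HO against RA, 1 rose and 1 fell (2.94%), against 1.97% of all genes called. The gene that rose was Ddit4, which encodes an mTORC1 inhibitor induced by hypoxia and other stresses. It had 30.5, 31.7 and 28.9 FPKM in HO-rWNT5A, 28.3, 33.8 and 27.4 in HO and 20.9, 20.8 and 19.3 in RA, and every library in 85% oxygen lay above RA. Its log2 fold change was 0.53 ± 0.079 (SE) in HO (limma adjusted p = 0.0156) and 0.56 ± 0.079 in HO-rWNT5A (limma adjusted p = 0.00604), each against the same RA libraries. The gene that fell was Eno3, the muscle-type enolase gene, with 8.08, 7.996 and 7.99 FPKM in HO-rWNT5A, 6.697, 6.97 and 5.42 in HO and 8.34, 10.1 and 9.17 in RA (log2 fold change -0.47 in HO against RA, limma adjusted p = 0.034). In HO-rWNT5A against HO, 0 of 68 passed under limma, 7 had an unadjusted p under 0.05, against 9.2% of all genes, and the 4 of smallest p, Rbx1, Stc2, Eno3 and Ppp1r3b, had limma adjusted p of 0.499. In HO-rWNT5A against RA, 5 rose and 1 fell (8.82%), against 4.25% of all genes called. Besides Ddit4, those that rose were Zfas1 (log2 fold change 0.38), the demethylase-family gene Jmjd6 (0.30), the transcription factor gene Ets1 (0.28) and Edn1, for the vasoconstrictor endothelin (0.37), with limma adjusted p of 0.0259 to 0.0406. The secreted stanniocalcin gene Stc2 fell by 0.44 on the log2 scale (limma adjusted p = 0.0304). By kind, the 5 that rose and the 1 that fell were all among the 37 further HIF targets tested, and 0 of 20 further glycolysis genes and 0 of 11 further pathway genes passed.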

How the data were processed

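Per the labels' protocols and the submitters' processing notes, the authors trimmed reads with Skewer 0.2.2, aligned them with STAR 2.5.3a and assembled transcripts with StringTie 1.3.1 and gffcompare 0.9.9c. FastQC 0.11.2 and DESeq2 are also named, and the builds hg38 and mm10 are listed without a role. The deposited values are FPKM for 143043 transcripts in 9 libraries. Of 142351 Ensembl transcripts, 141441 (99.4%) were found in GENCODE M21 (GRCm38), which gave gene names and coordinates, and FPKM was summed per gene.

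The FPKM did not resolve into whole reads (4.87% to 6.28% of products of FPKM and length were whole multiples within 0.02), which allowed no test on counts, and the depths, read from the most common such product, are rough. The share of structural RNA in the FPKM was 20.2% to 28.1%. Libraries were scaled by median ratio, and 13825 genes whose mean reached 1 FPKM were tested with limma 3.58.1 in R 4.3.3 on log2(scaled FPKM + 1). The model took all 9 libraries with a variance trend, tests were two-sided with Benjamini-Hochberg adjustment, and the threshold was 0.05. The script was tested on simulated data with known changes. Other steps used Python 3.11.15 with numpy 2.4.6, pandas 2.3.3 and, for plots, matplotlib 3.10.9.

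The 43 genes, the further list of 83 and the marker lists were chosen with earlier results of these data known. All 43 genes may be named. Of the further list, genes past the threshold are named, and otherwise the 4 of smallest p. Values are scaled FPKM, and ± is the SD over 3 libraries or the SE of a fold change. The share of 100-base words in common with other genes was counted for the most abundant transcript of each gene, against all GENCODE M21 transcripts. Promoters come from RefSeq, and motifs were searched on both strands. Alternatives were pseudocounts of 0.1 and 5, no filter or 5 FPKM, FPKM as deposited, equal totals, the protein-coding total, quantile normalization, no variance trend, the 2 groups alone, a block for the replicate number, leaving out each library in turn, and leaving out HO replicates 2 and 3 together.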

Additional observations from a re-analysis of the deposited data

How the results depend on the processing

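There were 18 alternatives each for HO against RA and for HO-rWNT5A against HO, and 17 for HO-rWNT5A against RA. In HO against RA and in HO-rWNT5A against HO, 0 of the set's tested genes passed, as in the fit reported. This held under every alternative with at least 2 libraries per group. In HO-rWNT5A against RA, 4 passed, but 0 did without a filter, 9 with FPKM as deposited, 10 with the 2 groups alone and 0 to 2 with 1 library left out. Correlations of same-numbered deviations from the group means ran from -0.12 to 0.28. With 3 libraries per group they cannot decide whether the replicate numbers pair the libraries. A block for the replicate number lowered the genes called to 115 in HO against RA and raised them to 2 in HO-rWNT5A against HO. It left Ndrg1 at a limma adjusted p of 0.0524 in HO-rWNT5A against RA.

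Counts over all genes tested depended on the settings. In HO against RA, 272 genes passed, against 69 without a filter, 55 with equal totals, 58 with the 2 groups alone, 13 without HO replicates 2 and 3 and 2 to 706 with 1 library left out. In HO-rWNT5A against HO, 1 passed, against 0 without a filter, 3 with the 2 groups alone, 0 without HO replicates 2 and 3 and 1 to 27 with 1 left out. In HO-rWNT5A against RA, 588 passed, against 222 without a filter, 256 with equal totals, 1317 with the 2 groups alone and 123 to 200 with 1 left out. The split into higher and lower was 167 and 105 in HO against RA, against 103 and 178 with FPKM as deposited, 26 and 29 with equal totals and 105 and 95 with the protein-coding total. In HO-rWNT5A against RA it was 331 and 257, against 209 and 613 as deposited and 93 and 163 with equal totals.

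The median log2 fold change of the other HIF targets in HO against RA was -0.09, and -0.039 with a filter of 5 FPKM, -0.15 as deposited and -0.14 to -0.0086 with 1 library left out. In HO-rWNT5A against RA it was -0.20, and -0.16 with a pseudocount of 5, -0.11 with a filter of 5 FPKM, -0.27 as deposited and -0.19 to -0.15 with 1 left out. In HO against RA the log2 fold change of Pfkl, -0.058, ranged from -0.16 without HO replicate 2 to 0.031 without HO replicate 1. That of Ldha, 0.090, ranged from -0.037 without HO replicate 2 to 0.17 without HO replicate 3, and was -0.0091 without HO replicates 2 and 3. The causes were not tested. Depth sets a further limit for genes near 1 FPKM, such as Pdk1.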
